A study of Mus musculus with 4 samples.

Results

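S100a4, S100a6, S100a10, S100a11, Lgals1, Lgals3, Anxa1, Anxa2, Vim and Crip1 were followed in single CD4 T cells, as 10 of the 32285 genes in the deposited matrices. They were chosen by name, as effector genes of the S100, galectin and annexin families with the cytoskeletal gene Vim and the LIM domain gene Crip1, with earlier results of these data known. All 10 were present in both matrices and passed the filter on low counts in every comparison. The donors were B6.H2g7 mice, given in the labels as strain B6.NOD-(D17Mit21-D17Mit10)/LtJ and 6 to 8 weeks old, which carry the H2g7 haplotype of NOD mice. Column-purified splenic CD4 T cells of 2 donors, 5000000 in number, went into 2 NOD.Rag1null hosts, which have no T or B cells of their own. On day 14 live CD4+TCRβ+ cells were sorted from each host's spleen, and a 5′ expression library and a receptor library were made per host. The hosts are called mouse 1 and mouse 2. Both received the same treatment and there was no untreated group, so each comparison sets classes of cells of a mouse against one another.

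S100 proteins are small calcium-binding dimers that change the activity of the proteins they dock on. S100a10 has lost its calcium sites and pairs with Anxa2, and S100a11 can pair with Anxa1. Annexins bind membrane phospholipids in the presence of calcium, and galectins bind β-galactoside sugars on surface glycoproteins. Vimentin is an intermediate filament protein. In T cells, genes of this kind are known to be low in naive cells and higher in effector and memory cells. Superantigens, which the title of the series concerns, engage T cells through the V segment of the receptor β chain. TRBV26 encodes Vβ3, the segment named in that title, and TRBV23 encodes Vβ20.

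Kept cells numbered 5993 in mouse 1 and 6332 in mouse 2, each with at least 500 genes, at most 10% mitochondrial UMIs and exactly 1 TRB chain. Their expression counts came to 38725969 and 44796902 UMIs (unique molecules). The libraries shared 166 barcodes, 58 of them among kept cells. A clonotype is the cells of 1 mouse that share V segment, J segment and CDR3 nucleotides of the TRB chain. TRBV26 was carried by 2084 and 1960 kept cells, TRBV23 by 959 and 725, and neither by 2950 and 3647, called other cells below. These classes differed in make-up. Clonotypes of 10 or more cells held 6.57% and 7.55% of TRBV26 cells but 46.4% and 45.0% of other cells. Foxp3, the regulatory T cell factor, had at least 1 UMI in 8.49% and 13% of TRBV26 cells and in 22.3% and 22.1% of other cells. As a gauge of background, the median share of cells with a Foxp3 UMI over clonotypes of 20 or more cells was 0.901% and 0.680%.

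The promoters of S100a4, S100a11, Lgals3 and Anxa2 are shown because the change of these genes with clonal expansion depended on the V class, as given below. Anxa1 met the same condition on few molecules, and its promoter, which held none of the motifs below, is not shown. Each stretch runs from 250 bases before to 50 after the RefSeq gene start in GRCm38.p6, 5′ to 3′ on the plus strand, where all 4 genes lie. Capitals mark matches on either strand to TGANTCA (bound by AP-1), CCACCC (bound by KLF factors), TGTGGTT (RUNX), TCACACC (T-box factors) or TGGAAA (NFAT). The motifs were chosen after the expression values were seen. They can overlap one another, and in these 4 promoters none did.
S100a4, chr3:90603520-90603819: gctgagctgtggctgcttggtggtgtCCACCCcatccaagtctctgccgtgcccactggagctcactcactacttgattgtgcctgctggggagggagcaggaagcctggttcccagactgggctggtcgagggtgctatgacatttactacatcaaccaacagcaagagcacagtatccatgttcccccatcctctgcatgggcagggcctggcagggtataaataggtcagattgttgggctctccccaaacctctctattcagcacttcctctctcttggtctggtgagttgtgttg
S100a11, chr3:93520246-93520545: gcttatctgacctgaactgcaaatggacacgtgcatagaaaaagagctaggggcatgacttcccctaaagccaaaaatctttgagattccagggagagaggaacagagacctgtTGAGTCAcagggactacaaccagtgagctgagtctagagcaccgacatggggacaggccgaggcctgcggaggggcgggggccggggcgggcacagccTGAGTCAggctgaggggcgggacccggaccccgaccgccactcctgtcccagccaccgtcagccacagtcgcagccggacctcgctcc
Lgals3, chr14:47373610-47373909: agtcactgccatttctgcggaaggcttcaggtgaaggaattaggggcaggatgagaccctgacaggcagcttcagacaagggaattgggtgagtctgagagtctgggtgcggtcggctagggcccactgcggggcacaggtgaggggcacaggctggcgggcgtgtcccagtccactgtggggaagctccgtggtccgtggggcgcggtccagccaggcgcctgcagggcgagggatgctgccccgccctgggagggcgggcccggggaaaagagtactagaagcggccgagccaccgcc
Anxa2, chr9:69453433-69453732: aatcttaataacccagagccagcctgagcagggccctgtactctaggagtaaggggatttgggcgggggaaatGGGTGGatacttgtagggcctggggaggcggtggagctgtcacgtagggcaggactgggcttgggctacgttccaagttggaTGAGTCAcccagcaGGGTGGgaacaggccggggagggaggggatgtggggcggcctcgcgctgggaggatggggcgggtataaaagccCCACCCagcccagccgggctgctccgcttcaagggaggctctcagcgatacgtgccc
RefSeq promoters were at hand for 8 of the 10 members, without S100a10 and Lgals1. The AP-1 letters occurred in 2 of these 8, S100a11 with 2 matches and Anxa2 with 1, and in 7.81% of all 32851 promoters of the same length. The KLF letters occurred in 4 of the 8 (S100a4, Anxa2, Vim and Crip1) and in 31.5% of all promoters. The RUNX letters occurred in S100a6 alone of the 8, and in 5.27% of all. The T-box letters (3.98% of all) and the NFAT letters (21.4% of all) occurred in none of the 8. A match is a description of the letters and not of a bound site.

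In the GENCODE M21 annotation of GRCm38 all 10 members are protein-coding genes, and their identifiers are those of the files. The 4 S100 members lie on the plus strand of chromosome 3 within 2.96 Mb: S100a4 (ENSMUSG00000001020) at 90603771 to 90606045, S100a6 (ENSMUSG00000001025) at 90612882 to 90624181, S100a11 (ENSMUSG00000027907) at 93520488 to 93526287 and S100a10 (ENSMUSG00000041959) at 93555080 to 93564643. Lgals1 (ENSMUSG00000068220) lies on chromosome 15 at 78926725 to 78930465 and Lgals3 (ENSMUSG00000050335) on chromosome 14 at 47367751 to 47386160. Anxa1 (ENSMUSG00000024659) lies on the minus strand of chromosome 19 at 20373428 to 20390944 and Anxa2 (ENSMUSG00000032231) on chromosome 9 at 69453620 to 69491795. Vim (ENSMUSG00000026728) lies on chromosome 2 at 13573927 to 13582826 and Crip1 (ENSMUSG00000006360) on chromosome 12 at 113146316 to 113153879.

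Summed over the 10 genes, the members took a median of 0.687% of a cell's UMIs in mouse 1 and 0.683% in mouse 2. From the 5th to the 95th percentile of cells that share ran from 0.115% to 2.51% and from 0.112% to 2.67%. Anxa1 stood on few molecules, 311 and 394 UMIs in 127 and 136 cells, and 28.6% and 31.0% of them came from the 10 cells with most. Values for Anxa1 therefore rest on few cells. The other 9 members had between 8668 UMIs (Lgals3 in mouse 1) and 79532 UMIs (S100a10 in mouse 2). For the comparisons, UMIs were summed per mouse and class of cells, and levels are CPM, the UMIs of a gene per 1000000 UMIs of the sum. A gene's level is compared only between classes and not with another gene, since the 5′ counts are not scaled to length. Sums were tested with edgeR's quasi-likelihood test with the mouse as a block, adjusted over all tested genes by the Benjamini-Hochberg method, and a difference is called when the adjusted p is under 0.05. Changes are given on the log2 scale, ± SE. With 2 mice, these p-values lean on a spread pooled across genes. The labels do not say whether the donors' cells were pooled, so the spread between donors is not measured.

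Most members differed by clonal size. In clonotypes of 10 or more cells, compared with cells whose clonotype was seen once, S100a4, Lgals3 and Anxa2 were more than 1 log2 unit higher, and S100a6, Lgals1, S100a11, Crip1 and S100a10 were higher by smaller amounts. Anxa1 was lower, and Vim did not pass the test. Of the 10 members 8 were called higher and 1 lower, where 13.5% of 12698 tested genes were called higher and 13.9% lower. With 1 cell drawn per clonotype 6 were called higher, without S100a10 (-0.0301) and Crip1 (0.0481), and Vim was the 1 called lower (-0.30, edgeR adjusted p = 0.0203). In that setting 206 of 11268 tested genes were called higher and 248 lower. With all cells the median log2 fold change was 0.52 over the members and 0.00 over all tested genes. There were 2395 and 2585 single-cell clonotypes, and 51 and 43 clonotypes of 10 or more cells with 1532 and 1830 cells.

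S100a4, whose protein binds non-muscle myosin, stood at 685 and 625 CPM in single-cell clonotypes of mouse 1 and 2, at 965 and 983 in clonotypes of 2 to 9 cells, and at 1218 and 1702 in clonotypes of 10 or more. Each step was upward in both mice and the 3 classes did not overlap. The fitted change from 1 cell to 10 or more was 1.17 ± 0.12 (SE, n = 2 mice, edgeR adjusted p = 0.000431). It was 0.83 in mouse 1 and 1.44 in mouse 2. S100a6, known as calcyclin, stood at 1148 and 1315 CPM, then 1651 and 1817, then 1714 and 2279, a change of 0.71 ± 0.07 (edgeR adjusted p = 0.000223). S100a11 rose from 1392 and 1257 CPM to 1822 and 1864 in the largest clonotypes, by 0.51 ± 0.05 (edgeR adjusted p = 0.000453). S100a10 changed least of the 4, from 1729 and 1640 CPM to 1903 and 1786, by 0.16 ± 0.04 (edgeR adjusted p = 0.0164), and its highest levels, 2018 and 1954 CPM, were in clonotypes of 2 to 9 cells.

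Lgals3, the chimeric galectin that cross-links glycoproteins, stood at 147 and 154 CPM in single-cell clonotypes, 251 and 235 in clonotypes of 2 to 9 cells, and 302 and 399 in those of 10 or more. The change was 1.24 ± 0.10 (edgeR adjusted p = 0.000159). Lgals1, a homodimeric galectin, rose from 1370 and 1413 CPM to 1954 and 2002, by 0.53 ± 0.04 (edgeR adjusted p = 9.6e-05). Both galectins rose with size in both mice. Anxa2 stood at 307 and 251 CPM, then 426 and 388, then 630 and 564, a change of 1.13 ± 0.05 (edgeR adjusted p = 1.3e-05), which was the smallest p among the members. Anxa1 went the opposite way, from 9.63 and 13 CPM to 4.96 and 1.61, by -1.81 ± 0.37 (edgeR adjusted p = 0.00876). Its log2 difference was -0.83 in mouse 1 and -2.42 in mouse 2, and the call was lost with 1 cell drawn per clonotype (-0.86, edgeR adjusted p = 0.60).

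Vim stood at 1059 and 1112 CPM in single-cell clonotypes and at 1175 and 916 in the largest, so its mice moved in opposite directions (-0.03 ± 0.10, edgeR adjusted p = 0.850). Its highest levels were in clonotypes of 2 to 9 cells, 1246 and 1366 CPM. Crip1 rose by 0.31 ± 0.06 (edgeR adjusted p = 0.00812), from 850 and 1007 CPM to 1114 and 1131. Clonotypes of 2 to 9 cells already differed from single cells: 8 members were called higher, all but Anxa1 and Vim, and 0 lower, where 3.09% of tested genes were called higher and 2.5% lower (5.6% in either direction). Without the mouse as a block, 0 members were called in that comparison, where 9 of 12698 tested genes were called higher and 15 lower. In the comparison of 10 or more cells with 1 cell the largest rises remained called without the block (S100a4 edgeR adjusted p = 0.0021, Lgals3 0.0011, Anxa2 0.0013). Large clonotypes were mostly of other V genes. In cells of neither TRBV26 nor TRBV23 alone, the changes were 1.47 for S100a4, 1.75 for Lgals3, 1.29 for Anxa2 and 1.14 for S100a11, while Vim was called lower (-0.43) and Crip1 stood at -0.01.

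**Figure D1:**
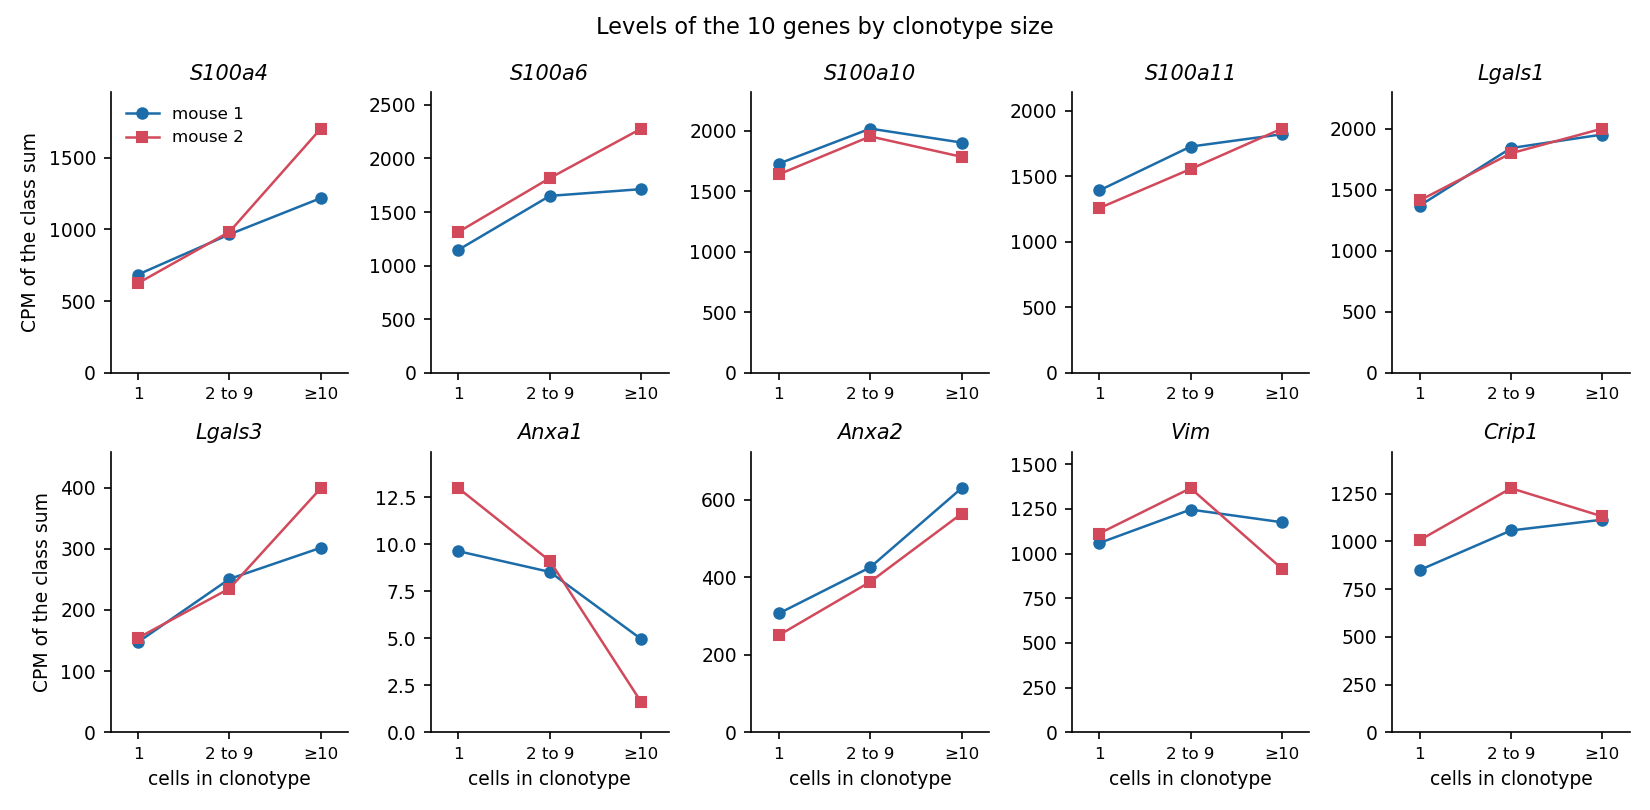
Level of each of the 10 genes (CPM of the class sum, y axis from 0) in cells of clonotypes of 1, 2 to 9 and 10 or more cells, with 1 line per mouse. S100a4, S100a6, Lgals3 and Anxa2 climb at each step in both mice, Anxa1 falls to 4.96 and 1.61 CPM, and Vim ends on opposite sides of its start.

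Markers of other cells moved with clonal size as well. Cells with any UMI of 10 myeloid genes made up 9.69% and 5.57% of single-cell clonotypes and 19.5% and 15.9% of clonotypes of 10 or more cells. Of the 17 macrophage and monocyte markers 15 were tested, 6 were called higher in the largest clonotypes and 0 lower, beside the 13.5% and 13.9% over all tested genes, and none was at 0 in either class. Their summed level ranged from 619 to 683 CPM in single-cell clonotypes and from 777 to 875 CPM in the largest. Cd68, a lysosomal glycoprotein, went from 11.8 and 8.19 to 35.9 and 29.2 CPM. Csf1r and Adgre1, named like Cd68 after the values were seen, were at or below 2.29 CPM in each of these sums. With the cells that held a myeloid UMI left out, the changes were 1.25 for S100a4, 1.35 for Lgals3, 1.12 for Anxa2, 0.74 for S100a6, 0.52 for Lgals1 and 0.51 for S100a11. The part of the macrophage and monocyte markers in the result was not tested. Of 12 Th1 genes 9 were called higher and 0 lower, where 13.5% of all tested genes were called higher (Eomes 34.5 to 197 CPM, Gzmk 211 to 917 CPM, as means of 2 mice). Of 14 naive and quiescence genes 11 were called lower and 0 higher, where 13.9% of all tested genes were called lower (Ccr7, a lymph node homing receptor, 133 to 16.5 CPM, and Igfbp4 166 to 4.86 CPM).

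Between V classes the differences were smaller. TRBV26 cells had less Vim, Lgals1, Anxa2, Crip1 and S100a4 than other cells and more S100a11, a split of 5 called lower and 1 higher. Over 12628 tested genes 10.5% were called lower and 8.73% higher. The members' median log2 fold change was -0.34, against 0.00 over all tested genes. Vim stood at 959 and 914 CPM in TRBV26 cells and at 1317 and 1311 in other cells, -0.49 ± 0.07 (edgeR adjusted p = 0.00036). The 2 classes did not overlap. Lgals1 stood at 1389 and 1315 against 1887 and 1964 CPM, -0.51 ± 0.09 (edgeR adjusted p = 0.00181). Anxa2 stood at 373 and 286 against 472 and 438 CPM, -0.48 ± 0.08 (edgeR adjusted p = 0.00206). Crip1 stood at 843 and 878 against 1080 and 1304 CPM, -0.47 ± 0.10 (edgeR adjusted p = 0.00521). S100a11 was higher in TRBV26 cells in both mice, at 1821 and 1624 against 1413 and 1412 CPM, 0.29 ± 0.05 (edgeR adjusted p = 0.00112).

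The signs of S100a4 and Lgals3 depended on how clonotypes were weighted. S100a4 stood at 868 and 830 CPM in TRBV26 cells and at 953 and 1153 in other cells, -0.31 ± 0.08 (edgeR adjusted p = 0.0256), or -0.13 in mouse 1 and -0.47 in mouse 2. Lgals3 had -0.38 ± 0.13 over all cells and missed the threshold (edgeR adjusted p = 0.0587). With 1 cell drawn per clonotype S100a4 was 0.21 higher in TRBV26 cells (edgeR adjusted p = 0.033), Lgals3 was 0.31 higher (edgeR adjusted p = 0.0407), and Anxa2 was at -0.02. Vim (-0.68), Crip1 (-0.57), Lgals1 (-0.50) and S100a11 (0.77) kept their direction and call under that setting. S100a6, S100a10, Lgals3 and Anxa1 were not called over all cells. Without the mouse as a block 0 members were called, and DESeq2 called S100a11 higher and Vim lower only. Of 12628 tested genes the fit without the block called 305 higher and 260 lower, and DESeq2 called 422 and 484. The 17 macrophage and monocyte markers summed to 811 and 749 CPM in TRBV26 cells and 702 and 704 in other cells, with 1 of 15 tested called higher and 2 lower, and their part in the result was not tested.

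TRBV23 cells were compared in the same fit. Against other cells 2 members were called higher (S100a11 by 0.36 and Anxa1 by 0.67) and 4 lower (Vim by -0.49, Lgals1 by -0.41, Crip1 by -0.36 and Anxa2 by -0.35), where 6.52% of tested genes were called higher and 6.67% lower. The Anxa1 call was lost without cells holding a myeloid UMI (0.51, edgeR adjusted p = 0.0864). S100a4 (-0.25) and Lgals3 (-0.17) were not called over all cells. With 1 cell drawn per clonotype both were called higher, S100a4 by 0.34 (edgeR adjusted p = 0.00297) and Lgals3 by 0.40 (edgeR adjusted p = 0.0209). That setting called 4 members higher and 3 lower, where 1037 of 11895 tested genes were called higher and 1150 lower. TRBV26 and TRBV23 compared directly gave 0 of 10 members called by edgeR and by DESeq2, where 0.0238% of tested genes were called in either direction and 601 genes had an unadjusted p under 0.05 (DESeq2 called 1 gene). The members' log2 differences ran from -0.30 (Anxa1, ± 0.17) to 0.00 (Vim, ± 0.07). That the p missed the threshold does not show equal levels.

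**Figure D2:**
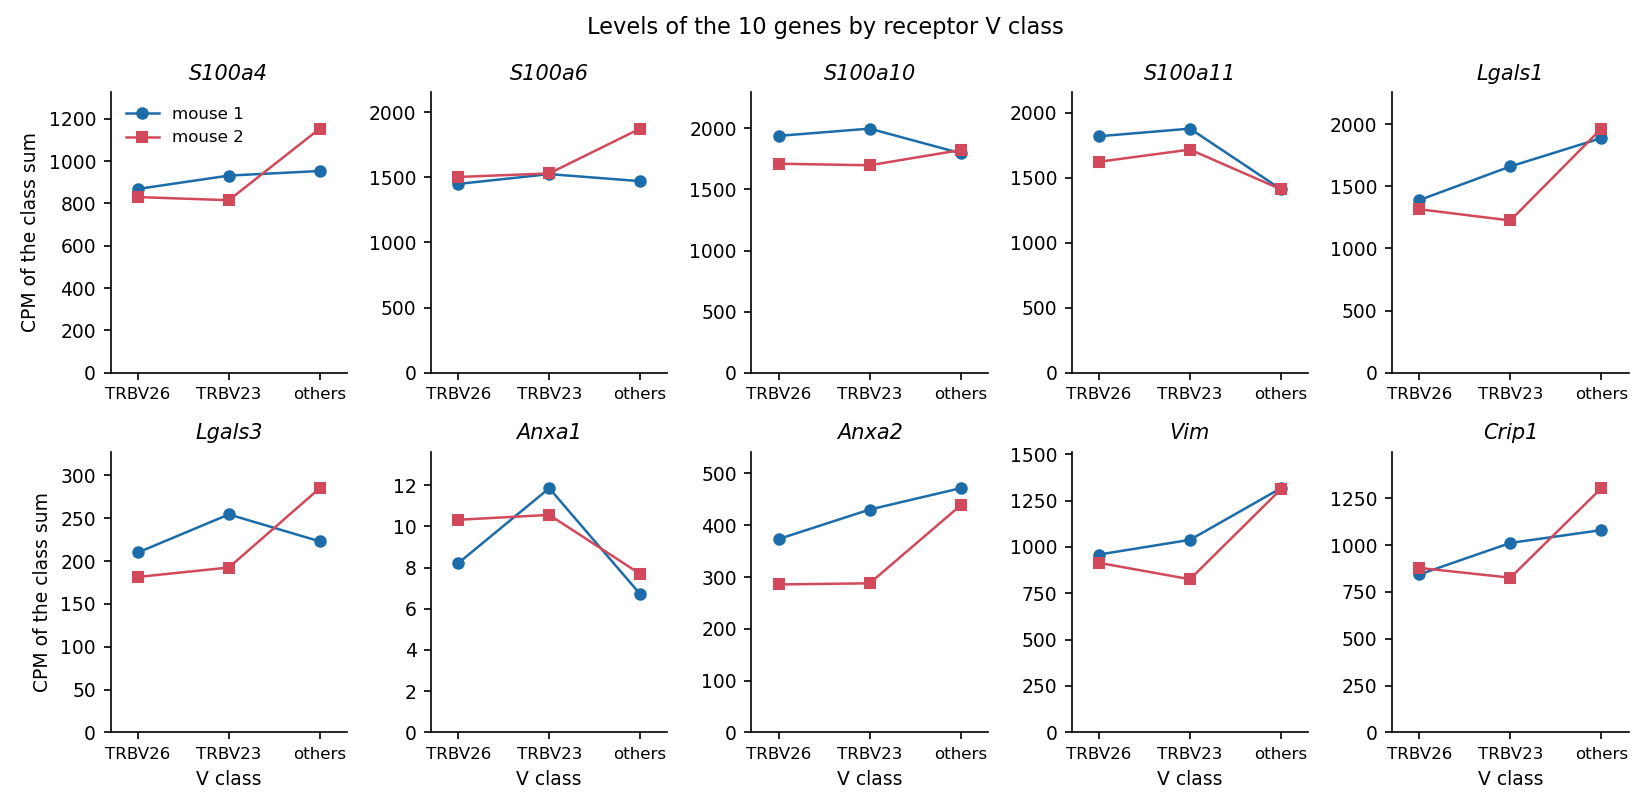
Level of each of the 10 genes (CPM of the class sum, y axis from 0) in TRBV26, TRBV23 and other cells, with 1 line per mouse. Vim and Lgals1 are highest in other cells of both mice, and S100a11 is lowest there at 1413 and 1412 CPM.

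Since V class and clonal size went together, both were put in 1 fit of 3 V classes by single-cell and expanded clonotypes (2 or more cells). Foxp3 status was not part of this fit, although it also went with V class. With 1 cell drawn from every clonotype, 96 of 1446 and 158 of 1426 TRBV26 cells had a Foxp3 UMI. Among other cells drawn in this way, 398 of 1084 and 504 of 1383 had one. The part of Foxp3 status in the results of this fit was not tested. Among single-cell clonotypes, 1139 and 1162 cells with TRBV26 were set against 782 and 1028 other cells. Of the members 4 were called higher in TRBV26 cells and 3 lower, where 11.8% of 11817 tested genes were called higher and 12.7% lower. Median UMIs per cell were 5365 and 6320 in the first class and 6510 and 7395.5 in the second. S100a11 stood at 1719 and 1559 CPM in single TRBV26 cells and at 832 and 856 in other single cells, 0.95 ± 0.06 (edgeR adjusted p = 3.8e-09). The lowest TRBV26 value lay well above the highest of the other cells. Lgals3 stood at 182 and 179 against 91.3 and 124 CPM, 0.72 ± 0.18 (edgeR adjusted p = 0.00597). S100a4 stood at 797 and 660 against 513 and 567 CPM, 0.43 ± 0.11 (edgeR adjusted p = 0.00807), the opposite sign to the comparison of all cells. Anxa1 was higher at 10.9 and 16 against 4.31 and 8.28 CPM (1.03 ± 0.35, edgeR adjusted p = 0.0400). Vim (-0.69 ± 0.08), Crip1 (-0.56 ± 0.12) and Lgals1 (-0.43 ± 0.11) were lower. Vim stood at 881 and 873 CPM against 1386 and 1437.

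Among expanded clonotypes no member was called higher in TRBV26 cells and 4 were called lower, where 3.72% of tested genes were called higher and 3.82% lower. Anxa2 stood at 426 and 345 CPM in expanded TRBV26 cells and at 556 and 527 in other expanded cells, -0.50 ± 0.10 (edgeR adjusted p = 0.00466). Lgals1 stood at 1548 and 1496 against 2022 and 2088 CPM, -0.43 ± 0.11 (edgeR adjusted p = 0.0178). Vim had -0.33 ± 0.08 (edgeR adjusted p = 0.0209). Lgals3 stood at 241 and 184 against 274 and 363 CPM, -0.58 ± 0.16 (edgeR adjusted p = 0.0353), so that its sign was opposite to that in single cells. Its difference was -0.19 in mouse 1 and -0.97 in mouse 2. S100a11 was no longer called, at 1931 and 1717 against 1640 and 1680 CPM. With 1 cell drawn per clonotype 328 of 10677 tested genes were called higher and 374 lower. Of the members 1 was called higher there, S100a11 (0.41, edgeR adjusted p = 8.2e-05), and 6 were called lower. Crip1 (-0.53), S100a6 (-0.26) and Anxa1 (-3.51) were among these 6, and were not called with all expanded cells. Without the block 0 members were called here, and DESeq2 called 2. Of 11817 tested genes the fit without the block called 139 higher and 141 lower, and DESeq2 called 216 and 193.

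The change with expansion was then read within each V class. In other cells 7 members were called higher in expanded clonotypes and 0 lower, where 11.6% of tested genes were called higher and 12.0% lower. In TRBV23 cells 6 were called higher and 1 lower (4.14% and 2.74% of tested genes, 6.88% in all). In TRBV26 cells 3 were called higher, S100a4, S100a6 and Anxa2, and Anxa1 was called lower (4.55% and 3.01% of tested genes, 7.57% in all). Under 1 cell per clonotype, with 307 and 264 expanded TRBV26 cells, only 1 member, Anxa1, was called in TRBV26 cells. Calls were few over all genes too in that setting, 33 higher and 28 lower of 10677 tested. The largest rises in other cells were 1.53 ± 0.17 for Lgals3, 1.23 ± 0.11 for S100a4, 1.06 ± 0.10 for Anxa2 and 0.96 ± 0.06 for S100a11. In TRBV26 cells the same genes had 0.24 ± 0.17, 0.47 ± 0.11, 0.44 ± 0.11 and 0.15 ± 0.06. In TRBV23 cells S100a11 had 0.20 (edgeR adjusted p = 0.0537) and Lgals3 0.64 (edgeR adjusted p = 0.0587), and neither was called.

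The difference between these changes was itself tested, without Foxp3 status in the fit. It is the change in TRBV26 cells minus that in other cells, and was not tested for TRBV23 cells. It was called for 5 members, all with a negative sign, where 5.06% of tested genes were called with a negative sign and 5.83% with a positive one. S100a11 had the smallest p, with a difference of -0.81 ± 0.08 (edgeR adjusted p = 1.0e-05) and -0.81 and -0.83 in mouse 1 and 2. Lgals3 had -1.30 ± 0.24 (edgeR adjusted p = 0.00139), S100a4 -0.76 ± 0.15 (edgeR adjusted p = 0.00280) and Anxa2 -0.62 ± 0.15 (edgeR adjusted p = 0.0100). Anxa1 had -2.01 ± 0.54 (edgeR adjusted p = 0.0225) on its few molecules. Lgals1 had -0.0032 ± 0.15, with a change of 0.32 in each of the 2 classes. The TRBV26 minus other difference for Vim was 0.36 ± 0.12 and missed the threshold (edgeR adjusted p = 0.0601). In the promoters shown above, S100a11 and Anxa2 hold the AP-1 letters, while S100a4 and Lgals3 do not. The promoter of Anxa1, which is not shown, does not hold them either.

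**Figure D3:**
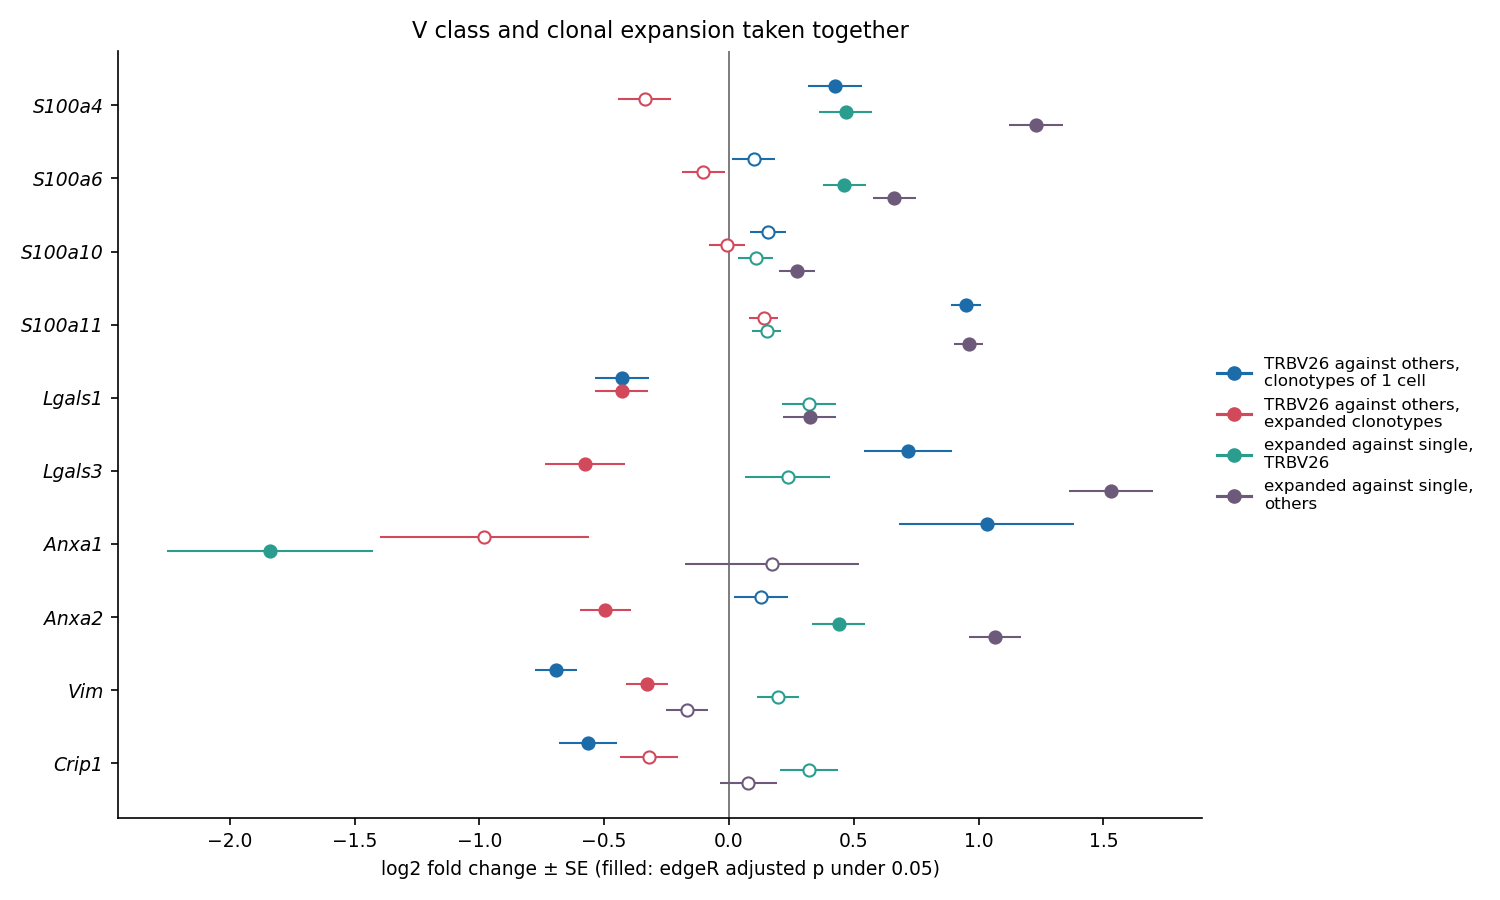
Log2 fold change ± SE of each gene (x axis) for TRBV26 against other cells in single-cell and in expanded clonotypes, and for expanded against single cells within TRBV26 and within other cells. Filled points passed the edgeR test. S100a11 lies at 0.95 for TRBV26 in single cells and at 0.96 for expansion in other cells, and at 0.14 and 0.15 for the remaining contrasts.

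Foxp3 status split the set. Cells with a Foxp3 UMI, 919 in mouse 1 and 1146 in mouse 2, had more Vim, S100a6, Lgals1 and S100a10 than cells without, and less Anxa1, Lgals3, Anxa2, S100a11 and S100a4. The 4 called higher and 5 called lower compare with 22.3% and 20.5% of 13069 tested genes. In that fit the weight of the pooled spread was without limit, so a gene's own variation between the mice carried no weight in its p-value, and the values of each mouse are given. The split matched known markers: of 13 tested regulatory T cell genes 12 were called higher and 1 lower (Il2ra, the high-affinity interleukin-2 receptor chain, 8.52 to 166 CPM, as means).

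Lgals3 stood at 86.1 and 107 CPM in Foxp3-positive and at 255 and 279 in Foxp3-negative cells, -1.47 ± 0.06 (edgeR adjusted p = 1.1e-127). Every positive value lay below every negative one. Anxa1 stood at 1.12 and 1.97 against 9.59 and 10.6 CPM, -2.66 ± 0.24 (edgeR adjusted p = 1.7e-26). S100a11 stood at 1193 and 1244 against 1718 and 1577 CPM, -0.43 ± 0.05 (edgeR adjusted p = 6.6e-15). Anxa2 stood at 303 and 319 against 462 and 390 CPM, -0.44 ± 0.05 (edgeR adjusted p = 2.8e-15), or -0.61 in mouse 1 and -0.29 in mouse 2. S100a4 stood at 728 and 857 against 966 and 1061 CPM, -0.35 ± 0.05 (edgeR adjusted p = 2.2e-10). The S100a4 difference turned to 0.10 with 1 cell per clonotype (edgeR adjusted p = 0.343), and that of Anxa2 shrank to -0.04 (edgeR adjusted p = 0.762).

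Vim stood at 1473 and 1677 CPM in Foxp3-positive and 1083 and 1001 in Foxp3-negative cells, 0.60 ± 0.05 (edgeR adjusted p = 2.7e-28). S100a6 stood at 1885 and 2204 against 1378 and 1600 CPM, 0.46 ± 0.05 (edgeR adjusted p = 4.5e-17), and Lgals1 at 1971 and 2107 against 1624 and 1580 CPM, 0.35 ± 0.05 (edgeR adjusted p = 2.7e-10). For each of these 3 genes the Foxp3-positive values lay above the negative ones. The share of all tested genes without such overlap was not counted. S100a10 was higher by 0.20 ± 0.05 (edgeR adjusted p = 0.000468), but by 0.02 in mouse 1 and 0.38 in mouse 2. Foxp3-positive cells had more UMIs, with medians of 6338 and 6597.5 against 5522 and 6166. Cells of at least 3000 UMIs, 11399 of them, were also thinned to 3000 UMIs, and Foxp3 status was read again from the thinned counts. This left 686 and 893 Foxp3-positive cells, so the cells and their classes changed along with depth. Under that setting S100a10 was at 0.03 and not called, and Lgals1 was at 0.11. Crip1, at 0.03 ± 0.05 over all cells, was called lower there (-0.17, edgeR adjusted p = 0.00357). With 1 cell per clonotype Crip1 was called higher (0.29, edgeR adjusted p = 0.00175). B cell markers moved with Foxp3 status too. The 9 markers summed to 543 and 598 CPM in Foxp3-positive and 75.6 and 87.1 in Foxp3-negative cells, with 5 of the 9 at 0 in the positive sums, and most of the sum came from Ighm (553 against 78.0 CPM, as means). Their part in the result was not tested.

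Expansion and Foxp3 status were combined in a further fit. Among Foxp3-negative cells all 10 members were called between expanded and single-cell clonotypes, 9 higher and Anxa1 lower, where 12.4% of 12200 tested genes were called higher and 12.3% lower (24.7% in all). S100a4 stood at 1145 and 1431 against 684 and 558 CPM there, 1.03 ± 0.11 (edgeR adjusted p = 6.2e-06). Among Foxp3-positive cells 0 of 10 were called by edgeR and by DESeq2, where 0.139% of tested genes were called higher and 0.402% lower. At an unadjusted p under 0.05 there were 1299 genes, and Crip1 was the only member among them (-0.22 ± 0.09). S100a4 stood at 754 and 843 CPM in expanded and 687 and 874 in single Foxp3-positive cells, so the classes overlapped (0.04 ± 0.11).

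The difference between the 2 changes was tested as well. The change with expansion was smaller in Foxp3-positive than in Foxp3-negative cells for S100a4 (-0.99 ± 0.16, edgeR adjusted p = 0.00249), Anxa2 (-0.81 ± 0.15, edgeR adjusted p = 0.00643), S100a6 (-0.79 ± 0.14, edgeR adjusted p = 0.00515), Crip1 (-0.66 ± 0.13, edgeR adjusted p = 0.00765) and Lgals1 (-0.55 ± 0.14, edgeR adjusted p = 0.0343). These 5 were called with a negative sign and 0 with a positive one, where 2.49% of tested genes were called negative and 1.64% positive. The sizes differed between mice, from -0.61 in mouse 1 to -1.41 in mouse 2 for S100a4, and DESeq2 and the fit without the block each called 0. Over all tested genes DESeq2 called 85 positive and 189 negative, and the fit without the block 8 and 33.

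**Figure D4:**
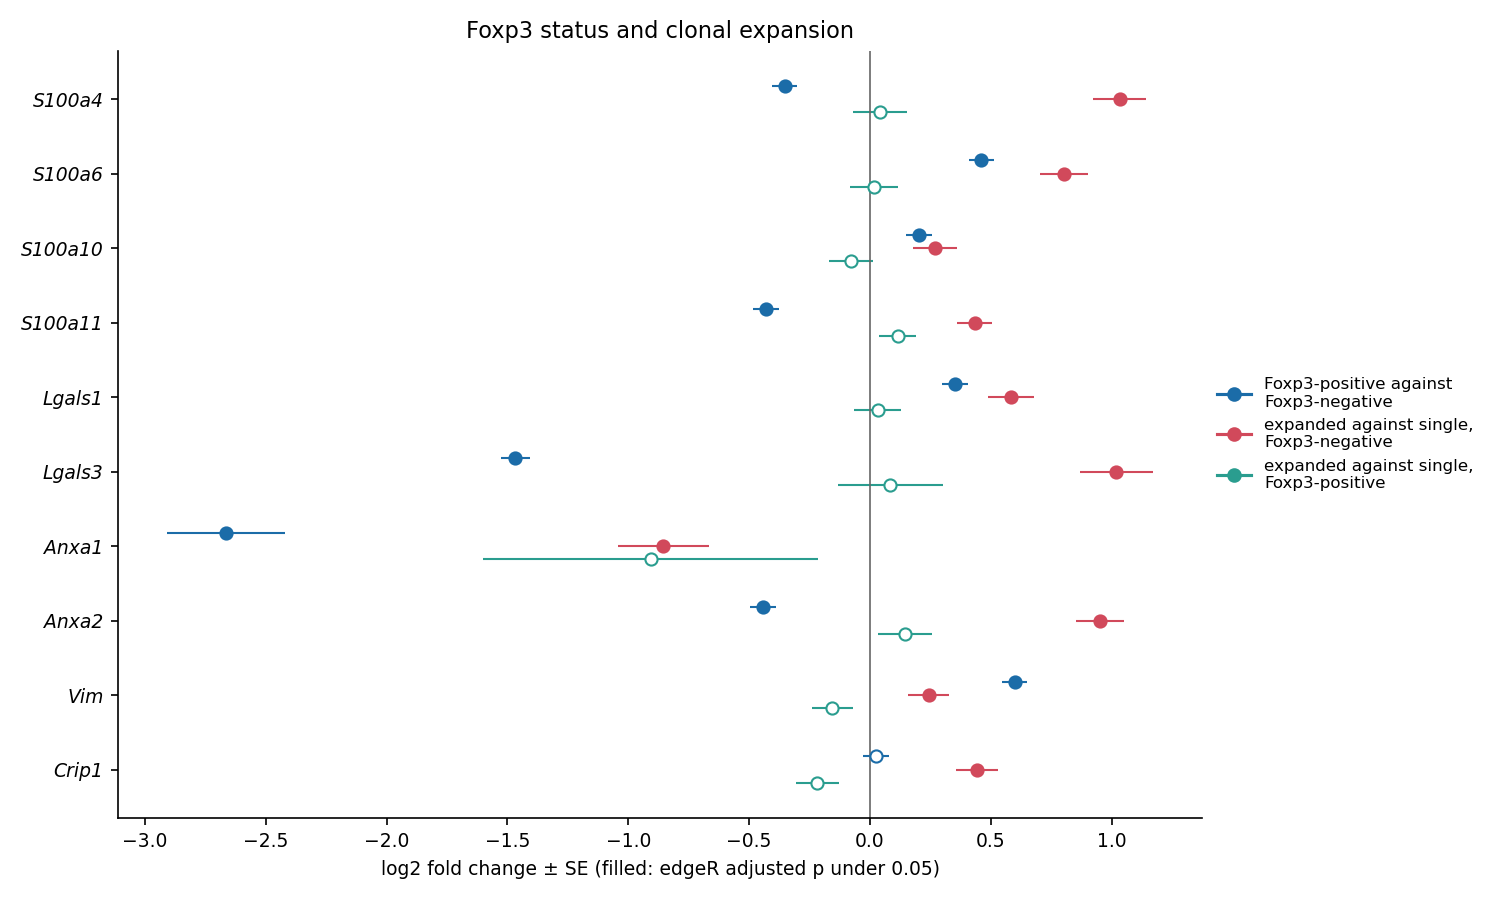
Log2 fold change ± SE of each gene (x axis) for Foxp3-positive against Foxp3-negative cells, and for expanded against single-cell clonotypes in Foxp3-negative and in Foxp3-positive cells. Filled points passed the edgeR test. All 10 points for expansion in Foxp3-negative cells are filled and all 10 in Foxp3-positive cells are open.

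The comparison of TRBV26 with other cells was repeated within each Foxp3 status. Among Foxp3-negative cells 6 members were called lower (Lgals1, Anxa2, Crip1, Vim, Lgals3 and S100a4) and S100a11 higher, where 10.3% of 11715 tested genes were called lower and 9.36% higher (19.7% in all). With 1 cell per clonotype S100a4 (0.22) and Lgals3 (0.0915) had the opposite sign and were not called, Anxa2 (-0.11) was not called, and Lgals1, Crip1 and Vim remained called lower and S100a11 higher. Lgals1 stood at 1327 and 1114 against 1863 and 1928 CPM, -0.65 ± 0.12 (edgeR adjusted p = 0.000933). Among Foxp3-positive cells, 177 and 254 of them with TRBV26, 0 of 10 were called by edgeR and by DESeq2, where 0.282% of tested genes were called higher and 0.154% lower (0.435% in all) and 1054 had an unadjusted p under 0.05. Of the members, S100a4, S100a6, S100a11 and Anxa1 had an unadjusted p under 0.05 there, all with a positive sign. S100a4 stood at 806 and 1004 CPM in Foxp3-positive TRBV26 cells and at 681 and 800 in other Foxp3-positive cells (0.31 ± 0.11, edgeR adjusted p = 0.328). The V class difference itself differed by Foxp3 status for S100a4 (0.78 ± 0.15, edgeR adjusted p = 0.00560), Lgals1 (0.72 ± 0.18, edgeR adjusted p = 0.0255) and S100a6 (0.45 ± 0.13, edgeR adjusted p = 0.0497), where 1.98% of tested genes were called with a positive sign and 1.95% with a negative one (3.93% in all). With 1 cell per clonotype the values for S100a4 (0.15) and S100a6 (0.00) were no longer called, Lgals1 (0.79, edgeR adjusted p = 0.0258) was, and S100a11 was called with a negative sign (-0.55, edgeR adjusted p = 0.00598).

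Relatives of the members were read from lists of gene families. The shares of all tested genes to set beside these counts are 13.5% higher and 13.9% lower for clonotypes of 10 or more cells, and 8.73% higher and 10.5% lower for TRBV26 against other cells. Of 12 further S100 genes 7 were tested by clonal size, 2 were called higher and 2 lower in clonotypes of 10 or more cells, and by V class 0 of 7 were called. Of 10 further annexins 5 were tested and 3 were called higher in the largest clonotypes, among them Anxa11 (112 to 147 CPM, 0.41 ± 0.05) and Anxa6 (341 to 418 CPM, 0.32 ± 0.04). In TRBV26 against other cells 3 of these 5 were called lower, Anxa6 (-0.32 ± 0.05) and Anxa11 (-0.25 ± 0.05) among them. Of 10 further galectins 6 were tested, with Lgals7 (4.13 to 22.3 CPM) and Lgalsl (11.2 to 22.5 CPM) higher in the largest clonotypes and 1 lower. Of the 5 tested LIM relatives of Crip1, Lmo4 was lower in the largest clonotypes (14.2 to 5.82 CPM, -1.25 ± 0.17) and higher in TRBV26 than in other cells (14.6 against 8.17 CPM, 0.83 ± 0.13). Csrp2 was higher in Foxp3-positive cells (23.7 against 2.23 CPM, 3.43 ± 0.16), and Lmo4 was lower there (-3.25 ± 0.23).

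Partners of the members moved in several directions. Of 11 tested binding partners and counter-receptors, 4 were called higher and 2 lower in the largest clonotypes, where 13.5% and 13.9% of all tested genes were. Cd7, a glycoprotein to which galectin-1 binds, went from 94.1 to 449 CPM (2.29 ± 0.06, edgeR adjusted p = 1.1e-06), and Mgat5, which makes the branched glycans that galectins bind, from 57.1 to 29.2 CPM (-0.94 ± 0.08, edgeR adjusted p = 0.000159). In Foxp3-positive cells Cd7 was lower (76.3 against 244 CPM), as was the integrin chain Itgb1 (116 against 438 CPM). In TRBV26 cells Cd7 was lower than in other cells (116 against 284 CPM, -1.32 ± 0.10), while the adhesion receptor Cd44 was higher (115 against 79.8 CPM, 0.54 ± 0.06). Of 20 genes of the actin and intermediate filament cytoskeleton, 9 were called higher and 4 lower in the largest clonotypes, and 10 lower and 1 higher in TRBV26 cells, where 10.5% and 8.73% of all tested genes were. The focal adhesion protein gene Zyx rose with size (166 to 310 CPM, 0.93 ± 0.06) and was lower in TRBV26 cells (162 against 257 CPM, -0.66 ± 0.07). Capg, an actin-capping gene that is also in the regulatory T cell list, was higher in Foxp3-positive cells (1100 against 171 CPM, 2.69 ± 0.06).

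Among clonotypes of 20 or more cells, 19 in each mouse, the members' summed share of UMIs ran from 0.713% to 1.83% in mouse 1 and from 0.589% to 1.67% in mouse 2. The CDR3 sequences of the 2 highest and 2 lowest clonotypes of each mouse are shown, as these label the clones at the ends of the range.
mouse 1, highest, TRBV13-3 and TRBJ2-4, 27 cells: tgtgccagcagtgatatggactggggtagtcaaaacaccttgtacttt
mouse 1, next, TRBV26 and TRBJ2-7, 24 cells: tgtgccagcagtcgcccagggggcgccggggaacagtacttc
mouse 1, next to lowest, TRBV31 and TRBJ1-4, 222 cells: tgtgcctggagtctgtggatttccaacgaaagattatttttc
mouse 1, lowest, TRBV19 and TRBJ2-1, 24 cells: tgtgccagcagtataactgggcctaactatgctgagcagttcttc
mouse 2, highest, TRBV26 and TRBJ2-5, 59 cells: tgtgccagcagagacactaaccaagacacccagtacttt
mouse 2, next, TRBV5 and TRBJ2-5, 29 cells: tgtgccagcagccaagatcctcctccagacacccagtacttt
mouse 2, next to lowest, TRBV3 and TRBJ2-7, 110 cells: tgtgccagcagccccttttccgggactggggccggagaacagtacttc
mouse 2, lowest, TRBV3 and TRBJ2-3, 24 cells: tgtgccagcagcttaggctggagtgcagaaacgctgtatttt
The highest of mouse 2 was a TRBV26 clonotype, although TRBV26 cells as a class were low. It held S100a6 at 4212 CPM, S100a4 at 2575 CPM and Lgals3 at 856 CPM. The lowest of mouse 2 held S100a6 at 289 CPM, S100a4 at 604 CPM and Lgals3 at 68.1 CPM. S100a11 did not follow this order, with 1601 CPM in the highest and 2128 CPM in the lowest of mouse 2. Clonotypes of 1 mouse are not replicates of a condition, so these values are a description.

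**Figure D5:**
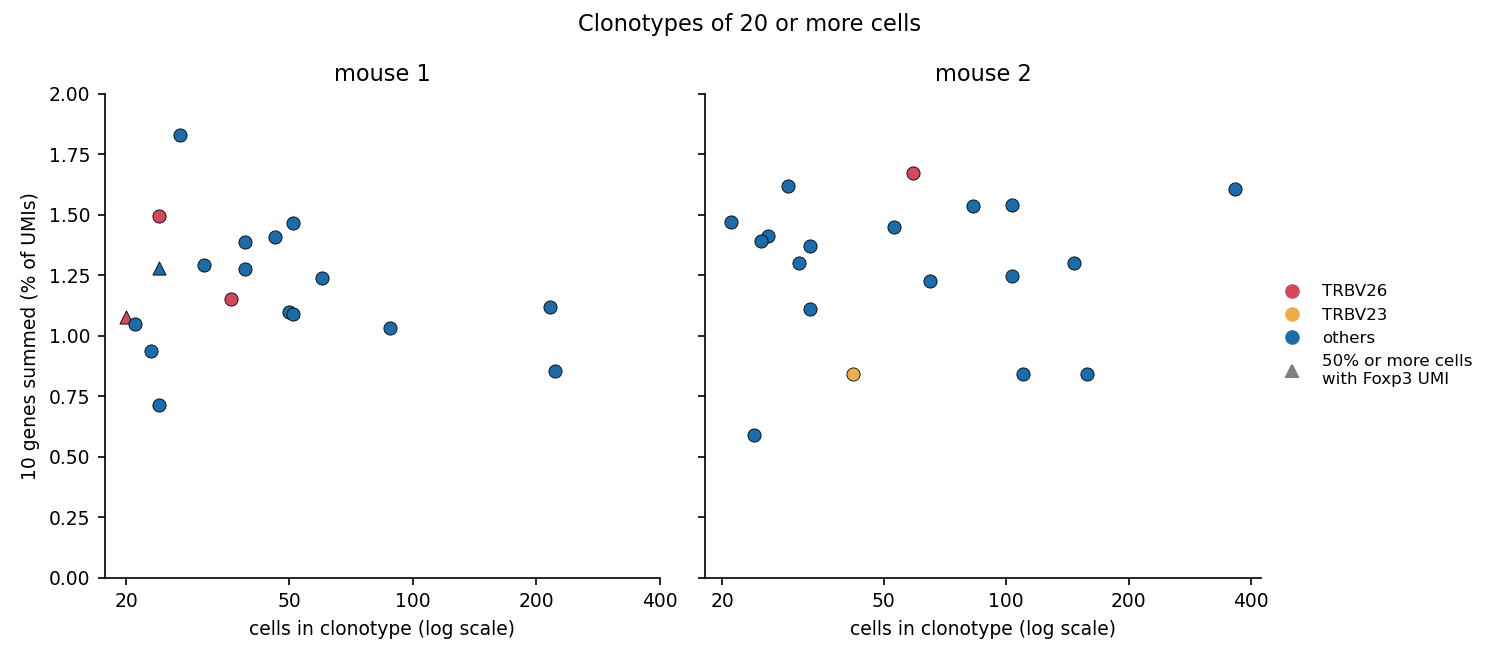
Summed share of the 10 genes (percent of UMIs, y axis) against the number of cells (x axis, log scale) for each of the 19 clonotypes of 20 or more cells per mouse, coloured by V class. Triangles mark the 2 clonotypes of mouse 1 in which 50% or more cells had a Foxp3 UMI. Shares run from 0.713% to 1.83% in mouse 1 and from 0.589% to 1.67% in mouse 2.

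The 2 largest clonotypes of mouse 1 had the same V and J genes and CDR3 sequences that differ at a single base, T16G counted from 1 at the first base of the CDR3 (first the clonotype of 222 cells, then that of 216). The base is in capitals.
222 cells: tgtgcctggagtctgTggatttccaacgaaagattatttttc
216 cells: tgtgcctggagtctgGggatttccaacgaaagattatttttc
Their members' shares were 0.854% and 1.12%. S100a6 stood at 553 CPM in the first and 1542 in the second, and Lgals1 at 1169 and 1755, while S100a4 (985 and 1033 CPM) and Anxa2 (559 and 613 CPM) lay closer together. In the 2 clonotypes of 20 or more cells that were mostly Foxp3-positive, a TRBV26 clonotype with 90.0% and a TRBV5 clonotype with 83.3% positive cells, Lgals3 stood at 17.3 and 245 CPM, where the median of the 19 clonotypes of mouse 1 was 302 CPM. S100a4 was lowest of all 19 in that TRBV5 clonotype, at 342 CPM.

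Across 12 V calls with at least 100 kept cells in each mouse, TRBV13-3 had the highest summed level of the members in both, 13269 and 13889 CPM. Its 206 cells of mouse 1 included clonotypes of 27, 51 and 39 cells, and its 383 cells of mouse 2 included clonotypes of 103 and 147. TRBV14 had 176 and 155 cells in 18 and 26 clonotypes. The level of a V call can thus be largely that of a few clonotypes. TRBV26 was lowest by the mean of both mice, at 9860 and 9252 CPM, but 10th and 11th in order within them. TRBV19 (9518 and 9964 CPM) was lowest in mouse 1 and TRBV23 (10739 and 9128 CPM) in mouse 2. Neighbours in this order lay within the spread between the mice, which reached 1731 CPM (SD, n = 2) for TRBV2. TRBV1 stood at 13162 and 11023 CPM, and its Vim at 1965 and 1427 CPM.

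Members moved together to different degrees. Over the 51 and 43 clonotypes of 10 or more cells, Pearson's r between log2(CPM + 10) values was 0.71 and 0.78 for S100a4 with Lgals3, 0.67 and 0.79 for S100a10 with Crip1, 0.70 and 0.71 for Lgals3 with Anxa2, and 0.73 and 0.65 for Lgals1 with Vim. For S100a11 with Vim it was 0.02 and 0.20, and for S100a6 with Anxa2 0.23 and 0.13. Genes outside the set whose clonotype levels were most like the mean of the members, among 3485 genes of at least 50 CPM, were Emp3 (r = 0.80 and 0.80), Rasgrp2 (0.77 and 0.73), Lsp1 (0.71 and 0.78), Anxa6 (0.66 and 0.75) and Klf2 (0.63 and 0.66), followed by Bhlhe40, Reep5, Ybx3, Ostf1 and Cd48. The least like were Izumo1r, a folate receptor family gene of regulatory and anergic T cells, at -0.66 and -0.73, and then Mrps6 (-0.60 and -0.75), Ephx1, Igflr1 and Peli1. These correlations describe clonotypes of 1 library each, which share its preparation but differ in summed UMIs, and carry no test. Among clonotypes of 20 or more cells, summed UMIs ran from 105799 (mouse 1) to 2036508 (mouse 2).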

How the data were processed

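Deposited UMI counts per gene and cell barcode and deposited tables of receptor contigs with their read and UMI counts were used; the authors made them with Cell Ranger 7.0.1 on mm10/GRCm38, per the submitters' processing notes. Cells with at least 500 genes, at most 10% mitochondrial UMIs and exactly 1 TRB contig were kept. Of 9860 and 9642 cells that passed the first 2 filters, 6701 and 7034 had a TRB contig, and 708 and 702 of these had 2 or more and were left out. No doublet caller was run. Medians were 5596 and 6219.5 UMIs per kept cell.

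Counts were summed per mouse and class, T cell receptor segments were left out, and Foxp3 was left out of fits that use Foxp3 status. Sums were fitted in 6 designs with edgeR 4.0.16 (TMM, filterByExpr, glmQLFit, R 4.3.3) and tested by the quasi-likelihood test, with p-values adjusted by Benjamini-Hochberg across every gene in the fit. Fits included the mouse as a block, since each class of a mouse comes from the same animal. Scripts were tested on simulated data. The block takes out differences in level between the hosts. The p-values thus rest on how far class differences varied between these 2 hosts, with that spread pooled across genes. Per-mouse log2 differences add 1 CPM.

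The members and all 22 gene lists were chosen with earlier results of these data known. Named are all members, up to 2 genes of smallest p per list in 3 comparisons (V class, Foxp3 status, clonal size), the 10 most and 5 least similar genes, V calls with at least 100 cells per mouse and the extreme clonotypes; genes named to check other cell types were chosen after their values were seen. Alternatives were DESeq2 1.42.0, RLE scaling, no block, no filter on low counts, stricter cell filters, cells with myeloid UMIs left out, 1 cell per clonotype, the 3 largest clonotypes left out, other V or Foxp3 classes, thinning to 3000 UMIs and leaving out each mouse.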

Additional observations from a re-analysis of the deposited data

Results flagged for a closer look

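A change that differed between classes of cells, by a test of the difference itself (edgeR's quasi-likelihood test, 2 mice), was found for 13 combinations of gene and comparison. The change with expansion in TRBV26 cells minus that in other cells was -0.76 for S100a4 (-0.88 and -0.64 in mouse 1 and 2), -0.81 for S100a11, -1.30 for Lgals3, -2.01 for Anxa1 and -0.62 for Anxa2, and every one was negative in both mice. The difference between TRBV26 and other cells was more positive in Foxp3-positive than in Foxp3-negative cells by 0.78 for S100a4, 0.45 for S100a6 and 0.72 for Lgals1, again in both mice. The change with expansion in Foxp3-positive minus Foxp3-negative cells was -0.99 for S100a4, -0.79 for S100a6, -0.55 for Lgals1, -0.81 for Anxa2 and -0.66 for Crip1, and each was larger in size in mouse 2 (-0.83 against -0.50 for Crip1).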

How the results depend on the processing

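Followed through the settings were 106 member values: those called in any comparison, and all members in 4 comparisons (TRBV26 against other cells over all cells and in single cells, Foxp3 status, and clonotypes of 10 or more cells). RLE scaling left these 106 on the same side of the threshold with the same direction, and stricter cell filters 104 of them. Outside them RLE scaling added a call for S100a11 with expansion within TRBV23 (0.21, edgeR adjusted p = 0.0451). Leaving out 1 mouse leaves no residual degrees of freedom, so those settings give values with no test. Without the replicate block, which treats classes of the same mouse as unpaired, the members called went from 6 to 0 for TRBV26 against other cells, 6 to 0 for TRBV23 and 8 to 0 for clonotypes of 2 to 9 cells. They went from 7 to 4 and 4 to 0 for TRBV26 in single and expanded cells, and 4 to 0 and 7 to 0 for expansion within TRBV26 and TRBV23. The difference of expansion between TRBV26 and other cells went from 5 to 3. Counts went from 7 to 2 for TRBV26 in Foxp3-negative cells, 3 to 0 for its difference by Foxp3, 10 to 6 for expansion in Foxp3-negative cells and 5 to 0 for its difference by Foxp3. With DESeq2 the same counts were 2, 2, 3 and 2 for the V class comparisons (all cells with TRBV26, with TRBV23, single, expanded), 2 and 3 for expansion within TRBV26 and TRBV23, 2 for the difference of TRBV26 from other cells, 1 and 0 for the differences by Foxp3 and 5 for expansion in Foxp3-negative cells. Over all genes, calls for TRBV26 against other cells went from 2424 to 565 without the block and 906 with DESeq2. Calls over all genes fell under both settings in each of the comparisons listed. For clonotypes of 2 to 9 cells, 393 genes called higher and 318 lower became 9 and 15 without the block. For TRBV23 against other cells, 823 and 842 became 220 and 203. Without a filter on low counts the members called were 7 for TRBV26 in expanded cells, 9 for expansion within TRBV26, 8 for the difference from other cells, 2 and 1 for TRBV26 and expansion in Foxp3-positive cells, and 7 and 9 for the differences by Foxp3. In these unfiltered fits the weight of the pooled spread was without limit, unlike in the same fits with the filter. A gene's own variation thus carried no weight in these calls. In each of these comparisons more genes were tested and called over all genes too. For TRBV26 in expanded cells these were 525 higher and 643 lower of 20320 tested. With 1 cell per clonotype, which leaves fewer cells, the members called were 7 for TRBV26 in expanded cells, 1 for expansion within TRBV26, 4 for TRBV26 in Foxp3-negative cells and 2 for the difference of expansion by Foxp3. For TRBV26 in Foxp3-negative cells 1245 of 11179 tested genes were called higher there and 1380 lower. For the difference of expansion by Foxp3 10 of 11000 were called with a positive sign and 22 with a negative one. Thinning gave 1, 5, 1 and 9 for TRBV26 in Foxp3-positive cells, its difference by Foxp3, expansion in Foxp3-positive cells and its difference by Foxp3. In the same order, 40, 152, 4 and 119 genes were called with a positive sign, and 10, 115, 17 and 215 with a negative one. The first 2 fits tested 10381 genes and the last 2 tested 11001. Leaving out cells with myeloid UMIs gave 3 for expansion within TRBV23, where 287 of 11529 tested genes were called higher and 183 lower.

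Signs turned as follows. With 1 cell per clonotype S100a4 and Lgals3 were at 0.21 and 0.31 for TRBV26, at 0.22 and 0.0915 for TRBV26 in Foxp3-negative cells, Anxa2 at 0.15 for TRBV23, S100a4 at 0.10 for Foxp3 and S100a10 at -0.0301 for clonotypes of 10 or more cells. Outside the followed values, S100a4 and Lgals3 turned to 0.34 and 0.40 for TRBV23 in that setting. Without a filter S100a10 was at -0.00261 for TRBV26 and Crip1 at -0.00252 for Foxp3, and with thinning Crip1 was at -0.17. With myeloid UMIs left out S100a10 was at -0.00818 for TRBV26 and S100a6 at -0.00463 for TRBV26 in single cells. For clonotypes of 10 or more cells Vim was at 0.0075 without the 3 largest clonotypes and Crip1 at -0.0101 in cells of neither class. The cause of these changes was not tested.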

Other observations

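S100a8 and S100a9, the neutrophil S100 genes, were not among the members and were concentrated in a few cells. In TRBV23 cells of mouse 1, S100a8 had 180 UMIs in 8 cells, 114 of them in 1 cell, and S100a9 had 431 UMIs in 14 cells, 210 of them in 1 cell. In TRBV23 cells of mouse 2 they had 1 and 0 UMIs. Erythroid markers stood apart in the other mouse, at 334 CPM in TRBV23 and 68.0 CPM in TRBV26 cells of mouse 2, against 4.64 and 6.24 CPM in the same classes of mouse 1.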
